A study of Mus musculus with 12 samples.

Results

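The 41 genes described here are a fixed list of type I interferon-stimulated genes, chosen by name but with earlier results of these data known. All 41 were found by Ensembl identifier among the 25904 genes of the mouse expression table, and all 41 passed the filter on low values, which required 3 of the 12 libraries to reach a normalized count of 10 and left 12519 genes. The filter asks for 3 libraries in any group, so a gene could pass through 1 group alone. Their roles place 5 among the oligoadenylate synthetases, 4 in the Ifit family, 3 in the Isg15 conjugation system, 5 among the sensors of nucleic acids, 6 among other antiviral effectors, 3 among the membrane restriction factors, 8 among ubiquitin, ADP-ribose and nuclear regulators, 2 in the Schlafen family and 5 among other induced genes.

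Type I interferons bind the receptor formed by Ifnar1 and Ifnar2, whose kinases Jak1 and Tyk2 signal to the complex ISGF3. This complex, which includes Stat2 and Irf9, binds the interferon-stimulated response element (ISRE) near many antiviral genes. In the brain, microglia both make and answer type I interferon, and interferon-stimulated genes have been described in infection, injury and ageing.

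RNA was sequenced from sorted C57BL/6 mouse cells in 4 groups of 3 libraries. WT microglia came from Tgfbr2fl/fl mice without Cre, and KO microglia from Cx3cr1CreER/+Tgfbr2fl/fl mice, in which tamoxifen activates Cre in cells that express Cx3cr1. The deleted gene, Tgfbr2, encodes a TGF-beta receptor chain. Both genotypes received 3 daily injections of 5 mg tamoxifen, and microglia, the resident macrophages of brain and spinal cord, were sorted 18 to 22 days later. WT and KO macrophages were the progeny of bone marrow of the same 2 genotypes in irradiated Cx3cr1CreER/+R26DTA/+ recipients. These received tamoxifen 6 weeks after the transplant, which depleted the hosts' own microglia, and the macrophages that repopulated the central nervous system were sorted 18 to 22 days after that. KO cells carry CreER on 1 Cx3cr1 allele and WT cells do not. Live Ly6C-negative CD11b+ cells were gated as F4/80lo in WT and F4/80hi in KO, so genotype, loss of 1 Cx3cr1 allele and gate cannot be told apart. Only the macrophage groups came from irradiated, transplanted hosts depleted of microglia. Cell origin and this procedure therefore cannot be told apart in any comparison of macrophages with microglia, the interaction included. From 1 to 5 mice were pooled for a library, and the p-values measure the spread between pools.

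The depth was 2615404 to 6364994 reads assigned to genes, so that a single read equalled 0.718 to 1.6 normalized counts. The targeted gene Tgfbr2 stood at 2495 to 3172 normalized counts in WT and 2078 to 2256 in KO microglia, and at 2997 to 3486 in WT and 2068 to 2469 in KO macrophages, and gene totals do not resolve the deleted part. Summed markers of microglia ranged from 64985 to 85140 in WT microglia and 5291 to 5829 in KO microglia, against 19268 to 20219 and 5903 to 6754 in WT and KO macrophages. Summed markers of border macrophages, the macrophages of the meninges and perivascular spaces, ranged from 85.9 to 107, 18337 to 22656, 5886 to 7071 and 15946 to 16128 in the same order. No marker of either list was at 0 in all libraries of a group. The neutrophil sum was at most 21.6 and the T and NK cell sum at most 11.8 in every library. In bulk RNA, fewer cells of a type and less RNA per cell cannot be told apart.

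**Figure D1:**
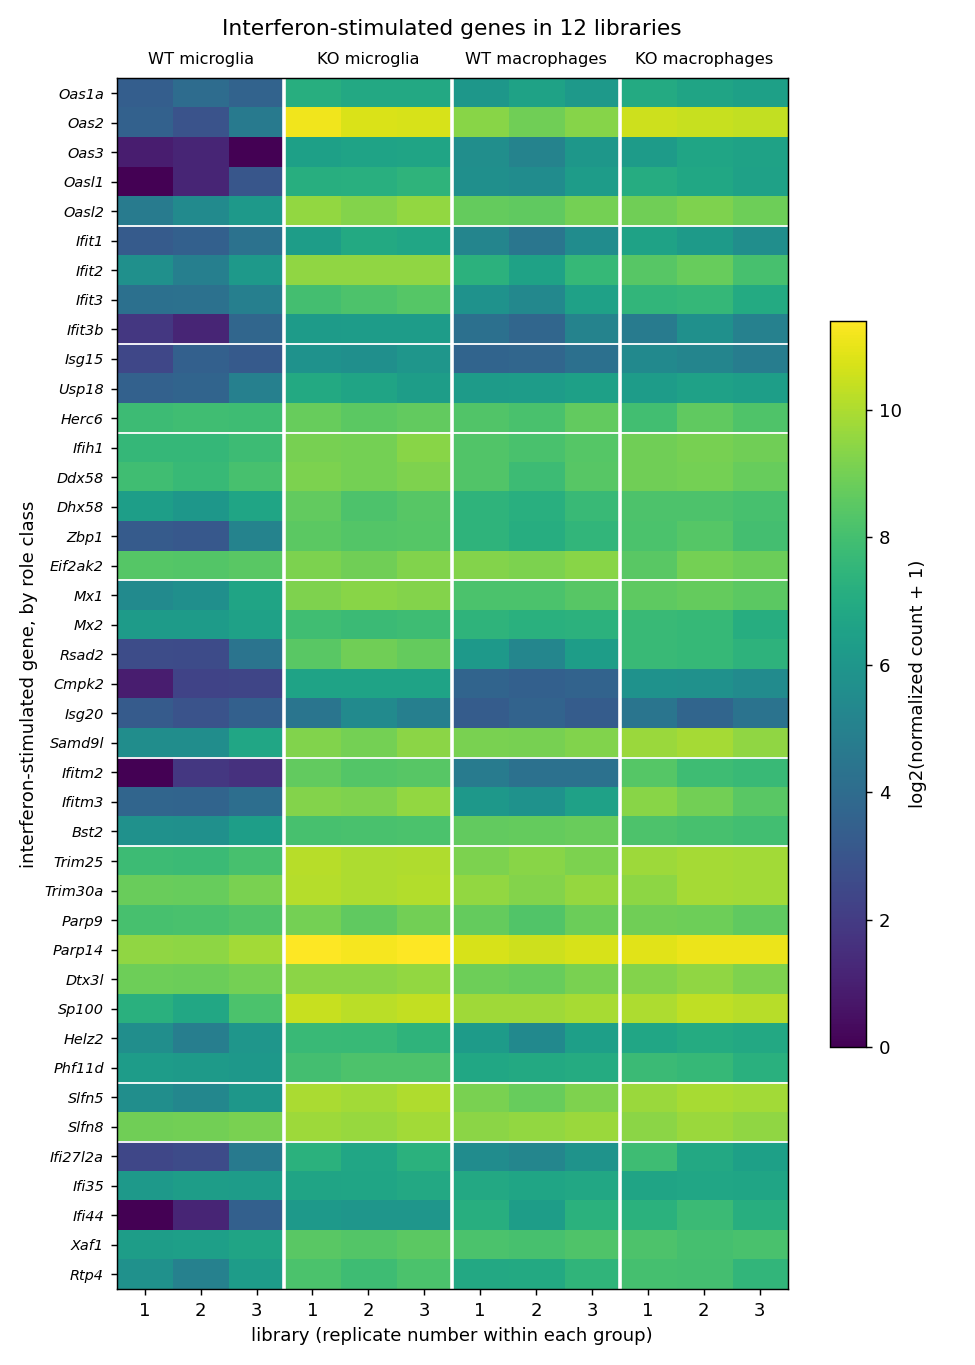
Heat map of log2(normalized count + 1) for the 41 interferon-stimulated genes (rows, separated by white lines into role classes) in the 12 libraries (columns, 3 per group). In each row the 3 KO microglia columns are lighter than the 3 WT microglia columns, and the shade also varies between rows. The WT microglia mean was the lowest of the 4 groups for 40 of 41 genes, and for 31.4% of all tested genes.

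The promoters of the genes are described before their levels, because ISGF3 binds the ISRE. The levels were already known when the promoters were searched. RefSeq promoter windows on GRCm38.p6, from 250 bases before to 50 bases after a start site, were at hand for 31 of the 41 genes. The ISRE core, TTTC, then 2 bases of any kind, then TTTC, searched on both strands, occurred in windows of 16 of these 31 genes (51.6%), against 3.99% of 27025 genes. For comparison, the gamma-activated site TTCNNNGAA, which reads alike on both strands and was counted once, occurred for 7 of 31 (22.6%), against 9.55% of all genes. ISRE matches may overlap one another, and 7 genes had more than 1 within a single window. A match is a string of letters and was not tested as a binding site.

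The 250 bases upstream of 5 genes are shown, each read 5′ to 3′ on the gene's own strand, with every ISRE match in capitals. Isg15 is shown as the classical member with 3 overlapping matches, Ifit3 and Ifit3b as neighbouring copies with the same pair of matches, Ifitm2 as the gene with the largest log2 difference between KO and WT in both cell origins, and Bst2 as a gene whose KO difference had opposite signs in the 2 origins. The windows are chr4:156200819-156201068 (minus strand), chr19:34583279-34583528 (plus strand), chr19:34607707-34607956 (plus strand), chr7:140955962-140956211 (minus strand) and chr8:71537473-71537722 (minus strand).
Isg15: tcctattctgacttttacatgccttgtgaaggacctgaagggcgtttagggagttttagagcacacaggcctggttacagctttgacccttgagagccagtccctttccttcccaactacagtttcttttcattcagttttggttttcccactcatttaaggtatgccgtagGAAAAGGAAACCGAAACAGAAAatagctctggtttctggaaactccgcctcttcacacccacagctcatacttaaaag
Ifit3: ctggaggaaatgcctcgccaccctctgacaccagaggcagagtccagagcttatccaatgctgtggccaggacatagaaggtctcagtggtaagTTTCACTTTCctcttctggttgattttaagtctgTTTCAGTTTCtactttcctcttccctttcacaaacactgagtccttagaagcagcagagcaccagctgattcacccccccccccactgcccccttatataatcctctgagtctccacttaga
Ifit3b: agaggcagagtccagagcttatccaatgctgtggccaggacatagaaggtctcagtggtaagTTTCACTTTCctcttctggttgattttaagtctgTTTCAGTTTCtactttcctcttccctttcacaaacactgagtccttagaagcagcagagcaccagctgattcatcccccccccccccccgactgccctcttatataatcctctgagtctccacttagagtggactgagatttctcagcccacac
Ifitm2: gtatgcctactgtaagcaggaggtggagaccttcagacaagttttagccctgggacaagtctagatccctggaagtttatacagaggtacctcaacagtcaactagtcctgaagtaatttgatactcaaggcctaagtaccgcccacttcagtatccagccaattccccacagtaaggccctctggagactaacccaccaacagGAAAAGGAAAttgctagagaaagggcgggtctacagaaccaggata
Bst2: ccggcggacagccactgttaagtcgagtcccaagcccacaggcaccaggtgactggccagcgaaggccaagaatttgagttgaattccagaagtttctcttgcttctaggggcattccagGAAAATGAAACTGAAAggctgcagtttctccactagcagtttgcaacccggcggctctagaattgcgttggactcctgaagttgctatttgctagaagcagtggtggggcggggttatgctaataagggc
In Isg15 the matches began 78, 72 and 66 bases before the start site, in Ifit3 156 and 122 bases, in Ifit3b 188 and 154 bases, in Ifitm2 46 bases and in Bst2 130 and 124 bases. Ifitm3, Ifih1, Ddx58, Eif2ak2 and, in the second of its windows, Trim30a had matches in the 50 bases after the start site. The 16 genes with an ISRE match had a median log2 difference of 3.12 between KO and WT microglia, with a range of 0.69 to 7.35. The 15 genes without one had a median of 2.21, with a range of 0.49 to 5.85, and the ranges overlapped. In macrophages the medians were 0.80 and 0.55.

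The first comparison asked how the genes differed between KO and WT microglia. All 41 were higher in KO microglia (adjusted p under 0.05 in limma), where 21.9% of all tested genes were higher and 20.6% lower. Their log2 differences ran from 0.49 to 7.35 with a median of 2.78, against a median of -0.01 over all tested genes. On that scale 12 genes were at least 16-fold higher, 27 at least 4-fold and 6 less than 2-fold. The lowest KO library exceeded the highest WT library for each of the 41, as it did for 27.4% of all tested genes, and the reverse held for none, against 27.8%. In WT microglia 27 of the genes stayed under 100 normalized counts in every library, while 33 exceeded 100 in every KO microglia library.

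The oligoadenylate synthetases had a median log2 difference of 5.85, and all 5 rose. The Oas enzymes among them bind double-stranded RNA and make oligoadenylates, which act as second messengers of the antiviral response. Oas2 (ENSMUSG00000032690, chromosome 5, 120730333 to 120749853, minus strand, GRCm38) stood at 10.6, 6.44 and 24.8 in WT and 2311, 1715 and 1670 in KO microglia (log2 7.17 ± 0.31 SE, adjusted p = 4.05e-11). Oas3, its neighbour on chromosome 5 (120753098 to 120777661), stood at 0.881, 1.29 and 0 in WT and 89.4, 96.4 and 98.9 in KO. WT microglia held 2 reads of Oas3 in all and KO microglia 312, a depth-scaled ratio of 137 with an exact 95% binomial interval of 37.6 to 1135 that covers counting error alone. Oasl1, an OAS-like protein known to restrain translation of Irf7 mRNA, stood at 0, 1.29 and 7.24 in WT and 142, 147 and 170 in KO (log2 5.85 ± 0.52, adjusted p = 1.96e-07). For Oas3 and Oasl1 the WT libraries were near the level of a few reads, while Oas2 had 41 reads over the 3 WT libraries. Replicate 3 was the highest WT library for Oas2 and Oasl1 but not for Oas3. Oas1a (log2 3.27 ± 0.21) and Oasl2 (4.02 ± 0.25) had the smaller differences, and 57.6% of the 50-base words of Oas1a also occur in Oas1g or other genes, so its count is uncertain.

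The 4 Ifit genes, which lie together on chromosome 19 and encode proteins that bind foreign RNA and block its translation, rose with a median log2 difference of 3.83. Ifit2, the gene of the family with the highest mean (34550694 to 34576419), stood at 51.1, 29.6 and 69.3 in WT and 718, 724 and 736 in KO microglia (log2 3.91 ± 0.28, adjusted p = 1.75e-08). The 3 KO libraries of Ifit2 were nearly alike, with an SD of 9.43 around a mean of 726, and far from WT. Ifit3 stood at 17.6, 18 and 29 in WT and 257, 293 and 334 in KO, and Ifit3b at 2.64, 1.29 and 12.4 and 74.6, 77.7 and 77.2. Of their 50-base words, 51.2% and 45% occur in other genes, mostly in each other, so their counts could have been split between them. Ifit1 rose by 2.97 ± 0.33.

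Of the Isg15 system, Isg15 itself, a ubiquitin-like protein joined to other proteins, was low in every library, at 4.41, 10.3 and 8.28 in WT and 55, 50.1 and 63.5 in KO microglia (log2 2.78 ± 0.31, adjusted p = 2.91e-06). Usp18, which removes Isg15 and restrains signalling at the receptor, stood at 10.6, 11.6 and 30 in WT and 120, 99.3 and 80.4 in KO (log2 2.59 ± 0.30, adjusted p = 3.72e-06). Herc6, the main Isg15 ligase of the mouse, moved least of the 3, from 222, 237 and 232 to 426, 369 and 402 (log2 0.79 ± 0.15, adjusted p = 0.000584). The groups did not overlap for any of them.

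The sensors differed widely in the size of the rise. Zbp1, a sensor of Z-form nucleic acids that can trigger cell death, stood at 8.81, 7.73 and 33.1 in WT and 372, 322 and 338 in KO microglia (log2 4.59 ± 0.36). The RNA helicase sensors Ifih1 (MDA5), Ddx58 (RIG-I) and Dhx58 (LGP2) rose by 1.48 ± 0.11, 1.21 ± 0.14 and 2.08 ± 0.17 from WT levels of 204 ± 15.5, 239 ± 31.4 and 83.3 ± 19.6 (SD, n = 3). Eif2ak2, the kinase PKR that halts translation on double-stranded RNA, was the highest of the class in WT microglia, at 340, 323 and 359, and stood at 571, 488 and 596 in KO (log2 0.69 ± 0.12, adjusted p = 0.00032). Ifih1, Ddx58 and Eif2ak2, the 3 sensors with the highest WT levels, had the smallest log2 differences of the class.

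Among the antiviral effectors, Rsad2, which encodes viperin, an enzyme that makes a chain-terminating nucleotide, stood at 5.29, 5.15 and 19.7 in WT and 358, 484 and 422 in KO microglia (log2 5.50 ± 0.38, adjusted p = 1.19e-08). Cmpk2, the adjacent gene on chromosome 12 for a nucleotide kinase, stood at 0.881, 3.87 and 4.14 in WT and 97.2, 97.3 and 96.5 in KO. Samd9l, the highest of the class on average and an inhibitor of protein synthesis, stood at 46.7, 47.7 and 106 in WT and 599, 526 and 676 in KO. For all 3 genes the WT and KO libraries lay far apart. Mx1 and Mx2, dynamin-like GTPases of which C57BL/6 mice carry a defective Mx1 allele, rose by 3.36 ± 0.22 and 1.50 ± 0.15. Isg20, an exonuclease, rose by 1.72 ± 0.35 but stayed at 20.6 to 43.3 in KO microglia.

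The membrane restriction factors included the largest log2 difference of all 41. Ifitm2, which with Ifitm3 hinders fusion of viruses with cell membranes, stood at 0, 2.58 and 2.07 in WT and 406, 330 and 351 in KO microglia (log2 7.35 ± 0.38, adjusted p = 3.38e-10). WT microglia held 4 reads of it against 1186, a depth-scaled ratio of 260 with an exact 95% interval of 101 to 956. Ifitm3 stood at 12.3, 11.6 and 16.6 in WT and 629, 587 and 747 in KO (log2 5.51 ± 0.22, adjusted p = 1.8e-11). Per kilobase of exon, Ifitm3 was the most abundant of the 41 in KO microglia, at 965 normalized counts per kilobase, followed by Ifitm2 at 553 and Oas2 at 427, whereas in WT microglia Slfn8 led at 127. Of the 50-base words of Ifitm2 and Ifitm3, 48.5% and 10% occur in other genes. Bst2, which encodes tetherin and holds budding virus at the cell surface, stood at 52.9, 51.5 and 81.8 in WT and 271, 275 and 285 in KO (log2 2.17 ± 0.15, adjusted p = 8.55e-09).

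The 8 ubiquitin, ADP-ribose and nuclear regulators rose with a median log2 difference of 1.85. Parp14, an ADP-ribosyltransferase and the most abundant gene of the class, stood at 732, 712 and 893 in WT and 2708, 2453 and 2645 in KO microglia (log2 1.74 ± 0.10, adjusted p = 9.57e-10). Its chromosome 16 neighbours Parp9 and Dtx3l, which encode partners in 1 complex, rose by 0.69 ± 0.15 and 0.55 ± 0.10, near the low end of the 41. Sp100, a component of nuclear bodies, rose by 2.93 ± 0.23, Trim25, a ubiquitin ligase of the RIG-I pathway, by 2.21 ± 0.10, and Helz2, a helicase-like coactivator, by 2.09 ± 0.28. Phf11d and Trim30a rose by 1.95 ± 0.14 and 1.18 ± 0.12. Slfn5 and Slfn8 of the Schlafen family rose by 4.29 ± 0.16 and 0.72 ± 0.09, with Slfn8 at 485, 510 and 560 in WT and 860, 800 and 892 in KO.

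Of the other induced genes, Xaf1, which encodes an XIAP-associated factor, stood at 79.3, 86.3 and 100 in WT and 362, 324 and 366 in KO microglia (log2 1.98 ± 0.11, adjusted p = 8.01e-10). Ifi44 stood at 0, 1.29 and 10.3 in WT and 69.7, 62.9 and 63.5 in KO, a log2 difference of 4.48 ± 0.59. Ifi27l2a, Rtp4 and Ifi35 rose by 3.85 ± 0.48, 2.40 ± 0.26 and 0.49 ± 0.13. Ifi35 had the smallest difference of the 41, and its 3 KO libraries (101 to 116) were still above its 3 WT libraries (70.5 to 79.9). All 41 genes remained called in every one of the 19 alternative fits in which they were tested, leaving out each library included. Isg20 was not tested in 1 of these, the filter at 50 normalized counts, where the other 40 were called.

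Markers of other cells moved with the same groups. Summed neuron markers were 13.5 to 15.5 in WT and 84.4 to 119 in KO microglia, and summed astrocyte markers 41.4 to 96.3 and 169 to 243, beside the microglia and border macrophage sums given above. Monocyte markers summed to 41.4 to 54.1 and 121 to 165, with Ly6c2 at 0 in both groups, oligodendrocyte markers to 182 to 198 and 275 to 311, and endothelial markers to 181 to 289 and 90.3 to 115. The mitochondrial share of reads was 3.86 to 4.36% in WT and 5.84 to 7.68% in KO microglia. The part of these differences in the rise of the interferon-stimulated genes was not tested.

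**Figure D2:**
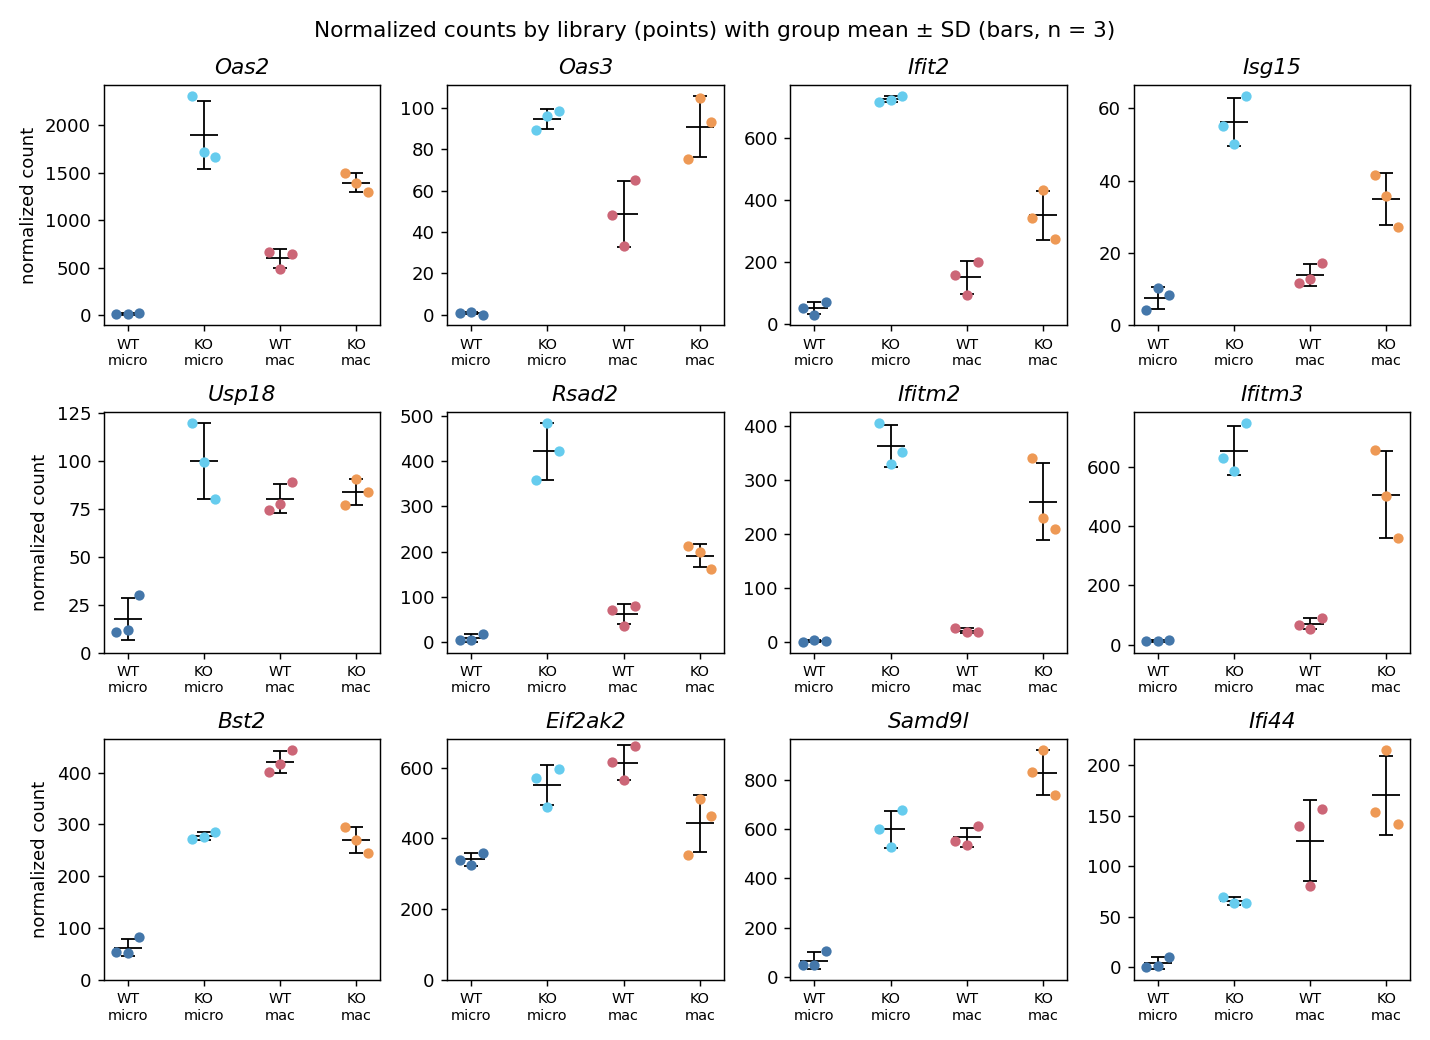
Normalized counts of 12 interferon-stimulated genes by library (points), with the mean of each group (wide bar) and its SD (error bar, n = 3). Most panels show WT microglia lowest and KO microglia highest, while WT macrophages are highest for Bst2 and Eif2ak2, and KO macrophages are highest for Samd9l and Ifi44.

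In macrophages, the same genotype comparison gave smaller and mixed differences. Of the 41 genes, 21 were higher in KO macrophages, 2 were lower and 18 passed in neither direction, where 16% of all tested genes were higher and 15.4% lower. The median log2 difference was 0.68, against 0.00 over all tested genes, with a range of -0.64 to 3.58. By library, 27 genes had all KO macrophage values above all WT values, 2 had all below and 12 overlapped, against 22.4% above and 22.8% below for all tested genes. On the log2 scale 10 genes were at least 2-fold higher and 3 at least 4-fold.

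The membrane restriction factors again held the extremes. Ifitm2 stood at 25.5, 17.8 and 18.1 in WT and 341, 229 and 208 in KO macrophages (log2 3.58 ± 0.38, adjusted p = 3.94e-06). Ifitm3 stood at 67.4, 54.6 and 90.5 in WT and 655, 501 and 361 in KO (log2 2.81 ± 0.22, adjusted p = 1.73e-07). In both genes replicate 1 was the highest KO macrophage library, and no KO value came near a WT value. Bst2, the third gene of the class, went the other way: 401, 417 and 444 in WT and 295, 270 and 245 in KO macrophages (log2 -0.64 ± 0.15, adjusted p = 0.00385). Its WT macrophage libraries were the highest of all 12.

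Eif2ak2 was the other gene that fell, from 616, 564 and 663 in WT to 354, 512 and 463 in KO macrophages (log2 -0.48 ± 0.12, adjusted p = 0.00791). The lowest WT value exceeded the highest KO value. Among the other sensors, Ifih1, Ddx58 and Dhx58 rose by 0.68 ± 0.11, 0.73 ± 0.14 and 0.72 ± 0.17, and Zbp1 did not pass (log2 0.85 ± 0.36, adjusted p = 0.0839) although its 3 KO libraries (254 to 334) were above its 3 WT libraries (135 to 181).

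Rsad2 and Cmpk2 were the effectors that rose in KO macrophages. Rsad2 stood at 71.9, 36.9 and 79.8 in WT and 213, 199 and 163 in KO (log2 1.66 ± 0.38, adjusted p = 0.00409), and Cmpk2 at 11.8, 10.2 and 11.5 and 56, 54.1 and 44.5 (log2 2.11 ± 0.34, adjusted p = 0.000274). Both pairs of groups were well apart. Mx1, Mx2, Samd9l and Isg20 did not pass, with adjusted p of 0.239, 0.431, 0.0792 and 0.122. Of the oligoadenylate synthetases, Oas2 rose from 660, 485 and 640 to 1500, 1389 and 1297 (log2 1.24 ± 0.31, adjusted p = 0.0063), while Oas3 passed narrowly (0.93 ± 0.32, adjusted p = 0.0407) and Oas1a, Oasl1 and Oasl2 did not pass.

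Ifit1, Ifit2 and Ifit3 rose by 1.07 ± 0.33, 1.26 ± 0.28 and 1.46 ± 0.27 in KO macrophages. Isg15 rose from 11.8, 12.7 and 17.3 to 41.6, 35.8 and 27.3 (log2 1.26 ± 0.31, adjusted p = 0.00662), whereas its protease gene Usp18 was at 74.6, 77.5 and 88.9 in WT and 76.8, 90.7 and 84 in KO (log2 0.06 ± 0.30, adjusted p = 0.898). The Usp18 groups overlapped. Ifi27l2a stood at 46.4, 36.9 and 57.6 in WT and 229, 116.9 and 87.6 in KO (log2 1.50 ± 0.48, adjusted p = 0.0264), with replicate 1 the highest KO library and no overlap between groups. Slfn5, Trim25, Phf11d, Dtx3l, Parp14, Helz2 and Rtp4 rose by 0.35 to 0.84, and Slfn8, Herc6, Xaf1 and Ifi35 had log2 differences of -0.02, -0.08, -0.05 and -0.08.

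The calls of Oas3, Ifit1, Parp14, Helz2, Ifi27l2a and Rtp4 were lost in some alternatives. All 6 were lost without WT macrophage replicate 2, where 15 of the 41 were higher. All but Ifi27l2a were also lost without KO macrophage replicate 2. Over the alternatives their adjusted p in limma reached 0.168, 0.110, 0.0682, 0.154, 0.0939 and 0.137, in that order. Calls were also lost without KO macrophage replicate 1 (Ifit1, Ifi27l2a, Rtp4), KO macrophage replicate 3 (Oas3, Helz2), WT macrophage replicate 1 (Oas3, Ifi27l2a, Rtp4), WT microglia replicate 1 (Rtp4) and KO microglia replicates 1 and 3 (Oas3, Rtp4) or 2 (Oas3). Apart from single libraries, Oas3 was lost with Ddx3y as a covariate and with no filter, and Ifit1 and Helz2 with the libraries of the 2 groups alone. In the other direction, 7 genes that had not passed were called higher in some alternatives: Oasl1, Zbp1, Mx1, Samd9l and Sp100 without WT microglia replicate 3, where 26 of the 41 were higher, Ifit3b with Ddx3y as a covariate and Trim30a without KO macrophage replicate 1. The lowest adjusted p of these genes ranged from 0.000467 for Zbp1 to 0.0423 for Ifit3b. The other 17 calls, among them the falls of Bst2 and Eif2ak2, remained in all 19 alternatives. Summed neuron markers were 30 to 52.1 in WT and 61.8 to 116.8 in KO macrophages, astrocyte markers 34.6 to 58.5 and 112 to 137, monocyte markers 169 to 216 and 160 to 353, endothelial markers 80.1 to 87.4 and 107 to 191, and border macrophage markers were as given above. Their part in these differences was not tested.

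The KO differences of the 2 origins were then compared directly, by the interaction of genotype and origin. The KO difference was called smaller in macrophages than in microglia for 37 of the 41 genes (interaction adjusted p under 0.05 in limma). Of all tested genes, 12.9% had an interaction called negative and 13% one called positive. The interaction was called positive for none of the 41, here or in any of the 18 alternatives run for it. The median interaction was -2.28, against 0.00 over all tested genes. Oas2 had the largest value (-5.93 ± 0.43, adjusted p = 1.18e-07), followed by Oas3 (-4.95 ± 0.46, adjusted p = 1.33e-06), Oasl1 (-4.90 ± 0.73, adjusted p = 0.00016), Ifi44 (-4.02 ± 0.84, adjusted p = 0.00243) and Rsad2 (-3.84 ± 0.54, adjusted p = 9.27e-05). The 4 genes that did not pass were Ddx58 (-0.49 ± 0.20, adjusted p = 0.0886), Isg20 (-0.98 ± 0.49, adjusted p = 0.165), Parp9 (-0.49 ± 0.21, adjusted p = 0.0936) and Dtx3l (-0.13 ± 0.15, adjusted p = 0.554).

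In all, 21 genes were higher in KO cells of both origins, 18 were higher in KO microglia and did not pass in macrophages, and Bst2 and Eif2ak2 were higher in KO microglia and lower in KO macrophages. The interaction of Bst2 was -2.82 ± 0.21 (adjusted p = 1.42e-07) and that of Eif2ak2 -1.17 ± 0.18 (adjusted p = 0.000158). The interaction calls of Isg15, Helz2, Ifi27l2a and Ifi35 were lost with Ddx3y, a gene of the Y chromosome, as a covariate, with adjusted p of 0.0887, 0.144, 0.103 and 0.0923, the highest over their alternatives. The call of Ifi35 was also lost with no filter. Leaving out 1 library ended the call of Isg15 for KO microglia replicate 3 and WT macrophage replicate 3, and that of Ifi27l2a for WT microglia replicates 1 and 2. The libraries were KO microglia replicates 1 and 2, WT macrophage replicates 1 and 3 and WT microglia replicate 2 for Helz2, and KO microglia replicate 3, WT macrophage replicates 1 and 3 and WT microglia replicate 1 for Ifi35.

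The comparison of WT cells asked how far the genes differed between the 2 WT groups, without the deletion. Cell origin and the transplant procedure cannot be told apart in it. This comparison shares the WT microglia libraries with the KO comparison in microglia. Of the 41, 37 were higher in WT macrophages than in WT microglia, none was lower and 4 did not pass, where 19.2% of all tested genes were higher and 20.2% lower. No gene had an unadjusted p under 0.05 in the direction of microglia, and none was called lower in any alternative, limma voom included. The median log2 difference was 1.58, against 0.00 over all tested genes, and 36 genes had all WT macrophage libraries above all WT microglia libraries, as 26.3% of all tested genes did, and none had all below, against 27.6%. The summed markers of other cells given above also differed between these groups, with those of monocytes and neurons higher and those of endothelial cells lower in WT macrophages. Their part was not tested.

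Oas2 led with 660, 485 and 640 in WT macrophages against 10.6, 6.44 and 24.8 in WT microglia (log2 5.50 ± 0.31, adjusted p = 1.85e-09). Ifi44 stood at 139, 80.1 and 156 in WT macrophages (5.36 ± 0.59, adjusted p = 3.49e-06), Oas3 at 48.2, 33 and 65 (4.88 ± 0.32, adjusted p = 1.3e-08) and Oasl1 at 50.1, 45.8 and 78.2 (4.43 ± 0.52, adjusted p = 6.3e-06). Zbp1 stood at 169, 135 and 181 (3.50 ± 0.36, adjusted p = 1.52e-06). None of the 5 came near its WT microglia values. In contrast Isg15, at 11.8 to 17.3, passed barely (0.83 ± 0.31, adjusted p = 0.0464), and Ddx58, Isg20, Dtx3l and Helz2 did not pass (log2 0.28, 0.20, -0.01 and 0.53).

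The call of Isg15 was lost in 14 of 19 alternatives (adjusted p up to 0.201), among them those without any 1 of the WT macrophage libraries, WT microglia replicates 1 or 3, any KO microglia library or KO macrophage replicate 2. The calls of Herc6 (without WT macrophage replicate 3 or WT microglia replicate 1, adjusted p up to 0.0869) and Parp9 (without WT macrophage replicates 1 or 3 or WT microglia replicates 1 or 2, adjusted p up to 0.123) were lost as well.

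Between the KO groups the 41 genes were closer than between the WT groups, and so were all tested genes. Of the 41, 3 were lower in KO macrophages than in KO microglia, none was higher and 38 did not pass. Of all tested genes 5.45% were higher and 5.05% lower, against 19.2% and 20.2% between the WT groups. The 3 lower calls were near the share of all tested genes, and 0 of them were kept in all alternatives. An unadjusted p under 0.05 in limma was reached by 17 of the 41, and the share of all tested genes that reached it was not counted. The median log2 difference was -0.33, against 0.00 over all tested genes, and 39 of the 41 were negative. With Ddx3y as a covariate the median was -0.13 and 29 were negative, and between the libraries with high Ddx3y, 1 of KO macrophages and 3 of KO microglia, the median was -0.23 with 6 positive. By library, 18 genes had all KO macrophage values below all KO microglia values and 2 had all above, against 13.7% and 13.3% of all tested genes.

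The 3 lower genes were Ifit2, at 343, 434 and 273 in KO macrophages against 718, 724 and 736 in KO microglia (log2 -1.08 ± 0.28, adjusted p = 0.0221), Phf11d, at 219, 195 and 152 against 253, 298 and 297 (-0.59 ± 0.14, adjusted p = 0.0113), and Parp14, at 1878, 2180 and 2132 against 2708, 2453 and 2645 (-0.34 ± 0.10, adjusted p = 0.039). For none of the 3 genes did the groups overlap. Samd9l (831, 921 and 739 against 599, 526 and 676) and Ifi44 (154, 215 and 141.5 against 69.7, 62.9 and 63.5) had all KO macrophage libraries above, with log2 differences of 0.47 ± 0.23 and 1.34 ± 0.59 that did not pass (adjusted p = 0.237 and 0.194). The standard error of Ifi44 comes from a fit over all 4 groups, in which its WT microglia libraries spread widely. Oas2, at 1500, 1389 and 1297 against 2311, 1715 and 1670, did not pass (adjusted p = 0.443).

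These calls moved with the fit. The number of lower genes was 0 with Ddx3y as a covariate, 7 with a pseudocount of 5, 9 with the 6 libraries of the 2 groups alone and 16 with limma voom, and the number of higher genes was 2, 1, 2 and 2. Leaving out single libraries gave 0 to 8 lower and 0 to 2 higher genes. Ifit2 lost its call without KO macrophage replicate 3 (adjusted p = 0.0793) or any KO microglia library (up to 0.0732), Phf11d without KO macrophage replicate 3 or KO microglia replicates 2 or 3 (up to 0.0571), and Parp14 without any KO microglia library, KO macrophage replicates 1 or 3 or WT macrophage replicate 1 (up to 0.143). The higher pair were Samd9l and Ifi44 without WT microglia replicate 3.

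The spread among libraries of 1 group had its own pattern. In WT microglia the median SD of the 41 genes was 0.39 on the log2 scale, against 0.18 over all tested genes, while in KO microglia it was 0.13 against 0.16. In WT macrophages it was 0.23 against 0.16 and in KO macrophages 0.20 against 0.24. These SDs were not matched for level, and 27 of the 41 genes stayed under 100 normalized counts in every WT microglia library. The part of counting error in the spread was not tested. WT microglia replicate 3 held the highest of the 3 WT microglia values for 34 of the 41 genes, against 31.7% of all tested genes. WT macrophage replicate 3 held the highest of its group for 33 (all genes 33.6%), and KO macrophage replicate 2 for 24 (all genes 29%). In KO microglia, replicates 1 and 3 each held the highest for 17.

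These were the libraries with high Ddx3y, a gene of the Y chromosome. In microglia, Ddx3y stood at 0.881, 1.29 and 436 in WT and 501, 470 and 508 in KO libraries, and in macrophages at 0.91, 8.9 and 653 in WT and 0, 540 and 0 in KO libraries. In each of the 3 groups with mixed Ddx3y, the library with the high level was the one with most of the 41 genes at their highest. Its median log2 distance from the other libraries of the group over the 41 genes was 0.59 for WT microglia, and for macrophages it was 0.26 (WT) and 0.16 (KO), against -0.02, 0.01 and 0.03 over all tested genes. WT microglia replicate 3 also had the lowest summed microglia markers of its group (64985) and the highest summed astrocyte markers (96.3). With 1 such library per group, Ddx3y and any other property of that library cannot be told apart.

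Since all KO microglia libraries had high Ddx3y and 1 WT microglia library did, the comparisons were also read among libraries of like Ddx3y, with no test. Against WT microglia replicate 3 alone, all 41 genes were higher in each KO microglia library, with a median log2 difference of 2.16 and a range of 0.43 to 6.88. In macrophages, the pair of libraries with high Ddx3y had a median of 0.55 with 35 of 41 positive, and the 4 with low Ddx3y a median of 0.69 with 36 positive. With Ddx3y as a covariate over all 12 libraries, 41 genes were called higher in KO microglia (median 2.61). In KO macrophages 23 were called higher and 2 lower (median 0.71), and 33 had an interaction called negative (median -1.79). Of all 12519 tested genes, that fit called 2389 higher and 2210 lower in KO microglia, and 1915 higher and 1782 lower in KO macrophages. It called 1159 interactions negative and 1173 positive.

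**Figure D3:**
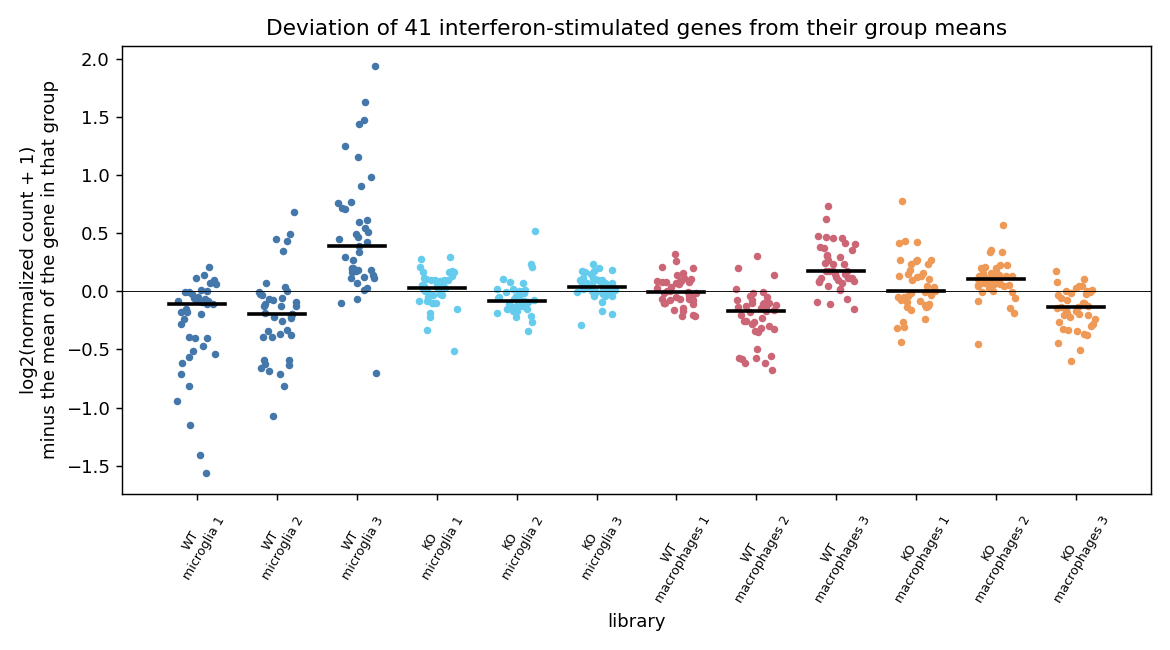
Deviation of each of the 41 genes from its group mean, on the log2(normalized count + 1) scale, in each of the 12 libraries (points), with the median of the 41 as a black bar. WT microglia replicate 3 lies highest, with a median of 0.39, and WT macrophage replicate 3 (0.17) and KO macrophage replicate 2 (0.10) are the highest of their groups.

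The rest of the pathway was read from lists of ligands, signalling genes, inducers, brakes, interferon-gamma targets, partners and paralogs. Of 21 listed interferon ligands, 4 had a value and none passed the filter. Ifnb1 stood at 0, 0 and 2.07 in the WT and 0, 0 and 0.804 in the KO microglia libraries, and at 0.91, 0 and 0 in the WT and 0 in each of the KO macrophage libraries, which is 2, 1, 1 and 0 reads. No difference in ligand RNA was detectable at this depth. Listed markers of plasmacytoid dendritic cells, known as strong makers of type I interferon, summed to 34.2 to 56.4 in WT and 8.84 to 20.6 in KO microglia. In macrophages they summed to 1.65 to 4.55 in WT and 8.73 to 14.4 in KO. Only 3 of the 5 markers had a value, 1 passed the filter, and Ccr9 was at 0 in all WT microglia libraries. These sums do not show whether such cells were present.

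The shares of all tested genes to read the counts of these lists against are, as above, 21.9% higher and 20.6% lower in KO microglia, and 16% and 15.4% in KO macrophages. Of 11 receptor, kinase and ISGF3 genes, 6 were higher and 1 lower in KO microglia, and 3 were higher and 3 lower in KO macrophages. Ifnar1 rose from 634 ± 79.3 to 1252 ± 53.5 (SD, n = 3) in microglia and fell from 2046 ± 97.1 to 1456 ± 116.8 in macrophages (interaction -1.48 ± 0.13, adjusted p = 1.08e-06), and Ifnar2 (log2 0.29 ± 0.10) and Il10rb (1.15 ± 0.08) rose in microglia. Ifngr1, the interferon-gamma receptor chain, was the gene lower in KO microglia (-0.34 ± 0.09) and was higher in KO macrophages (0.36 ± 0.09). Stat2, named after its values were seen as a part of ISGF3, stood at 240 ± 38.7 in WT and 752 ± 70.2 in KO microglia, and rose in macrophages by 0.58 ± 0.13 on the log2 scale.

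Of 16 inducers, sensors and adaptors that lead to interferon production, 4 were higher and 4 lower in KO microglia, close to the shares of all tested genes. Tmem173, which encodes STING, fell in both origins, from 992 ± 63.3 to 215 ± 14.3 for microglia and from 479 ± 48.6 to 269 ± 21.4 for macrophages. Irf8 and Irf5 fell by 0.61 ± 0.07 and 0.64 ± 0.08 on the log2 scale in microglia. Irf7, the transcription factor that amplifies interferon production and is itself interferon-induced, rose in both origins, from 36.7 ± 23 to 414 ± 40.6 (microglia) and from 145 ± 20.4 to 421 ± 76.6 (macrophages). In KO macrophages 5 of the 16 were higher and 2 lower, with Unc93b1 (0.49 ± 0.09) and Irf1 (0.74 ± 0.11) among the higher.

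Of 8 tested brakes on the pathway, 4 were higher and 1 lower in KO microglia, and 1 was higher in KO macrophages, with the single calls near the share of all tested genes. Socs3, an inhibitor of cytokine receptor signalling, was the lower gene, at 467 ± 77.3 in WT and 53.9 ± 16.2 in KO microglia, and stood at 97.1 ± 13.7 and 94.6 ± 6.57 in macrophages (adjusted p = 0.927). Samhd1, an enzyme that breaks down deoxynucleotides, rose from 768 ± 79.2 to 2104 ± 111 in microglia, and Adar, the RNA-editing enzyme, from 523 ± 31 to 833 ± 54.4. Of 13 tested targets of interferon-gamma, 12 were higher in KO microglia and 6 in KO macrophages, and none was lower in either. Nlrc5, the activator of MHC class I genes, rose by 2.83 ± 0.14 in microglia (0.30 ± 0.14 in macrophages, adjusted p = 0.12), and Ciita, the activator of MHC class II genes, by 4.54 ± 0.21 and 2.75 ± 0.21.

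Partners of the 41 genes followed in microglia: 6 of 7 tested were higher and none lower. Uba7, the enzyme that activates Isg15, rose from 667 ± 31.1 to 924 ± 120 in microglia and fell from 1002 ± 58.7 to 823 ± 105 in macrophages (adjusted p = 0.0491). Parp12, a mono-ADP-ribosyltransferase, rose from 266 ± 11.8 to 538 ± 29.4 in microglia. Of 18 tested paralogs, 15 were higher and 1 lower in KO microglia, and 10 were higher and none lower in KO macrophages. Slfn2 rose in both origins, from 112 ± 23.1 to 697 ± 69.2 (microglia) and from 301 ± 19.8 to 749 ± 42 (macrophages), and Slfn10-ps was the paralog that fell in microglia (-1.51 ± 0.32).

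**Figure D4:**
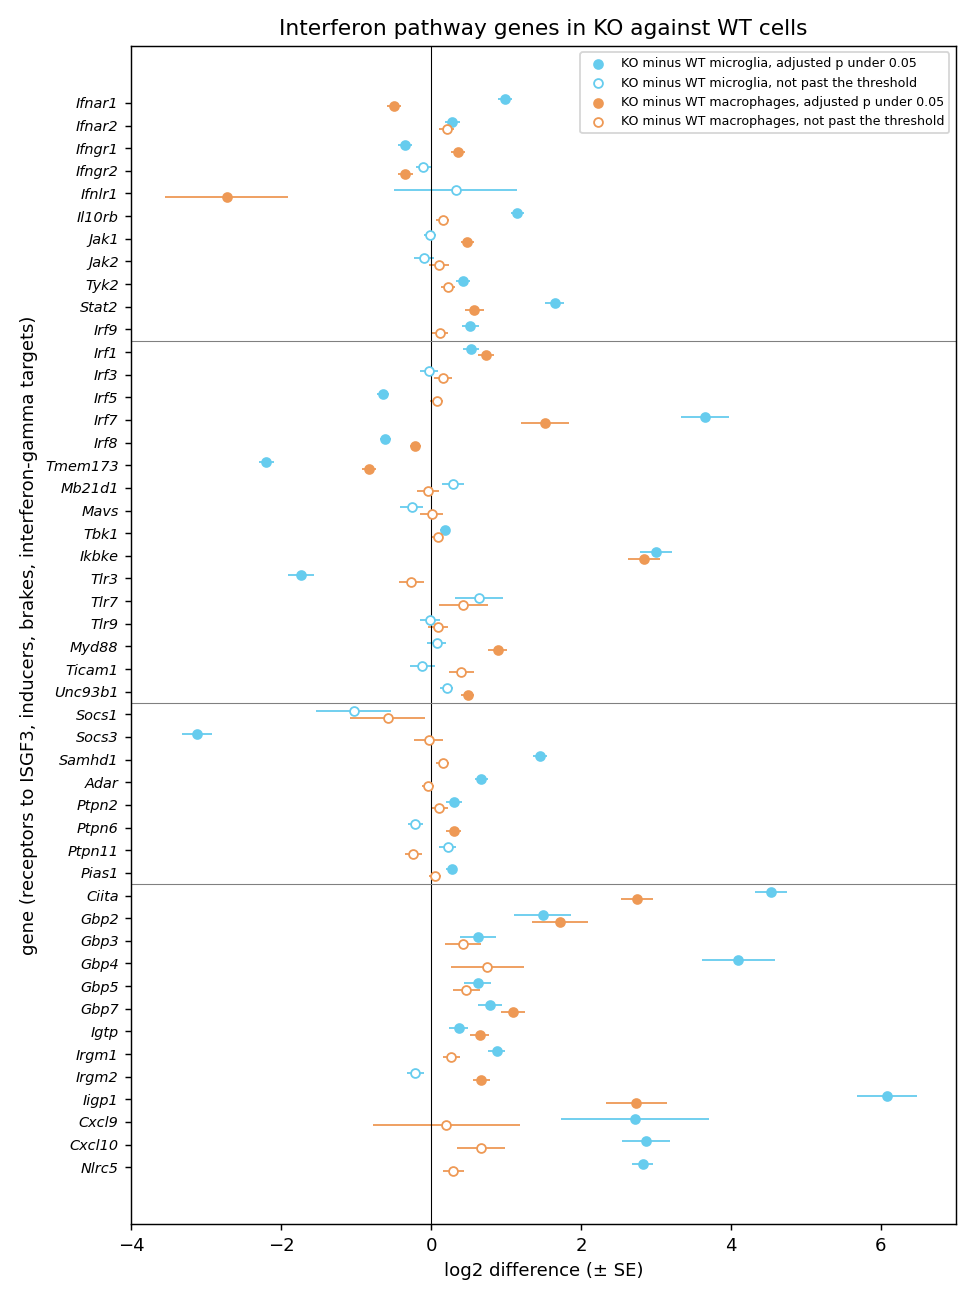
Log2 difference between KO and WT, with error bars of 1 SE, for receptor and ISGF3 genes, inducers, brakes and interferon-gamma targets (rows, separated by grey lines) in microglia (blue) and macrophages (orange), with filled points for adjusted p under 0.05. Ifnar1 lies on opposite sides of 0 in the 2 origins, Tmem173 lies under 0 in both, and Ciita and Iigp1 lie far above 0 in both.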

How the data were processed

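The data were 12 RNA-seq libraries of sorted mouse cells, 3 in each of 4 groups taken from the library titles. The authors deposited log2 values for 25904 genes, which are log2(scaled count + 1), each count scaled by its library's size factor: undoing the log gave whole multiples of 1 read for 100% of 310848 values (tolerance 0.01 reads). These are called normalized counts. Per the submitters' processing notes, the tools were STAR, bcl2fastq and CASAVA and the build GRCm38. Not given in the sources used here are their versions, the read counter, the annotation, the normalizing tool and the strand setting, so reads of antisense or overlapping genes cannot be told apart. RNA came from a stranded pico-input total RNA kit, per the labels' protocols. GENCODE mouse release 21 gave the symbols and coordinates and named 25730 of the genes and left 174 unnamed, and promoters from RefSeq.

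A linear model with a mean-variance trend (limma 3.58.1, R 4.3.3) was fitted to the deposited log2 values of all 12 libraries, with 1 mean per group and 8 residual degrees of freedom (median prior 6.64), over 12519 genes; 13385 were under the filter. P-values were adjusted by Benjamini-Hochberg over all genes tested, and the threshold was 0.05 with no fold minimum. The added 1 makes log2 differences of low genes too small. The fit was tested on simulated reads in which 200 of 12519 genes changed. All libraries were drawn from WT microglia means, with a single setting of the spread between libraries for all genes. It recovered 52% of 2-fold and 88.8% of 4-fold changes between KO and WT microglia, 46.4% and 86.7% in macrophages, and 18.4% and 72.1% for the interaction. In the data far more genes were called and the spread differed between groups, so these rates need not hold there. The alternatives, 19 in all, were another pseudocount (5), no filter and a filter at 50, TMM-scaled log2 CPM, the libraries of 2 groups alone, the level of Ddx3y as a covariate, 12 fits that each left out 1 library, and limma voom on the recovered reads, which was added after seeing the data, as were the readings among libraries of like Ddx3y. Other planned count models were not run, because the deposited unit is log2. The rest was done in Python 3.11.15 with pandas 2.3.3, numpy 2.4.6, matplotlib 3.10.9 and scipy 1.17.1.

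Values by library are given, in the groups compared, for the 5 called genes with the largest rise and the 3 with the largest fall. The rule for the interaction was 5 and 5, and some of these genes lack printed values in a group. For the gene of highest mean in each role class, values by library are given in microglia and not always in macrophages. Of the pathway lists, up to 3 called genes per direction are named, those with the highest mean. Others were named after their values were seen. The 41 genes and the lists were chosen with earlier results of these data known. Some genes of the pathway lists are not reported here and are left out of the counts.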

Additional observations from a re-analysis of the deposited data

Results flagged for a closer look

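For 37 of the 41 genes the difference between KO and WT was itself different between macrophages and microglia by the interaction test (limma, adjusted p under 0.05), always smaller or more negative in macrophages. The interaction values below are log2 differences, KO minus WT in macrophages less KO minus WT in microglia. They were -2.85 for Oas1a, -5.93 for Oas2, -4.95 for Oas3, -4.90 for Oasl1 and -3.79 for Oasl2 among the oligoadenylate synthetases. In the Ifit family they were -1.90 for Ifit1, -2.65 for Ifit2, -2.28 for Ifit3 and -3.19 for Ifit3b. Isg15 had -1.52, Usp18 -2.53 and Herc6 -0.87.

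Of the sensors, Ifih1 had -0.80, Dhx58 -1.36, Zbp1 -3.74 and Eif2ak2 -1.17. Of the effectors, Mx1 had -3.01, Mx2 -1.33, Rsad2 -3.84, Cmpk2 -2.66 and Samd9l -2.71. Ifitm2 had -3.76, Ifitm3 -2.70 and Bst2 -2.82. Of the regulators, Trim25 had -1.64, Trim30a -0.94, Parp14 -1.40, Sp100 -2.56, Helz2 -1.25 and Phf11d -1.31. Slfn5 had -3.50 and Slfn8 -0.73. Of the other genes, Ifi27l2a had -2.35, Ifi35 -0.57, Ifi44 -4.02, Xaf1 -2.03 and Rtp4 -1.65. For Bst2 and Eif2ak2 the KO libraries were all above the WT libraries in microglia and all below them in macrophages.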

How the results depend on the processing

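No called difference of the 41 genes changed direction under any alternative, of which 19 were run for each comparison of groups and 18 for the interaction, which has no fit on 2 groups. Differences that were not called changed sign in some alternatives for 12 genes between the KO groups (10 of them with Ddx3y as a covariate, where the median moved from -0.33 to -0.13), for Herc6 and Slfn8 in KO macrophages, for Dtx3l between the WT groups and for Dtx3l in the interaction. The median log2 difference between KO and WT microglia (2.78) was 2.31 with a pseudocount of 5, and 2.48 to 3.04 when 1 library was left out. The median interaction (-2.28) was -1.79 with Ddx3y as a covariate, -1.91 with a pseudocount of 5, and -2.51 to -1.95 when 1 library was left out. Between KO macrophages and KO microglia, the genes of the 41 called lower (3) were 0 with Ddx3y as a covariate, 16 with limma voom, 9 with the libraries of the 2 groups alone, 7 with a pseudocount of 5, 2 with TMM scaling and 2 with no filter, and 0 to 8 when 1 library was left out. Those called higher (0) were 2, 2, 2 and 1 under the first 4 of these, and 0 to 2 when 1 library was left out. Of all tested genes, 408 were lower with Ddx3y as a covariate in place of 632, and 398 to 719 when 1 library was left out. The cause was not tested. Calls of the 41 kept in all alternatives that tested the gene were 41 of 41 in KO microglia (40 were tested with a filter at 50), 17 of 23 in KO macrophages, 34 of 37 between WT groups, 0 of 3 between KO groups and 33 of 37 for the interaction. The 2 planned negative binomial models on the recovered reads were not run. Depth limits the genes near 0 in WT microglia, where Oas3 had 2 reads and Ifitm2 had 4. No paired analysis was possible because the library titles carry no replicate numbers shared between groups.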
